A study of Mus musculus with 6 samples.

Results

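Rab GTPases are small proteins that mark the membranes of a cell and direct the traffic of vesicles between them. Each Rab is switched on by an exchange factor that loads GTP and switched off by a GTPase-activating protein, and in its active form it recruits effectors that move, tether or fuse vesicles. In heart muscle the endosomal Rabs are known for returning receptors, integrins and the glucose transporter GLUT4 to the cell surface, and Rab4a serves the fast return route from early endosomes.

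The family was taken as every protein-coding gene whose symbol is Rab followed by a number and at most 1 letter. This gave 59 genes of the 30914 in the expression table. The family was selected on the measured difference of Rab4a between the groups, one of the largest of the table, so the values of its members in that comparison are a description and carry no test. Hearts of 3 male C57BL/6J mice that carried osmotic pumps delivering Ang II (1 μg/kg/min, 4 weeks; Ang II) were compared with hearts of 3 such mice that also received Tec, the flavonoid tectochrysin, during the last 2 of these weeks at 5 mg/kg (Ang II + Tec). The mice were wild type and 8 weeks old at the start. Both groups carried Ang II, and libraries from mice without Ang II were not analysed here, so the comparison shows Tec on top of Ang II and not the effect of Ang II. Ang II infusion is known to raise blood pressure and enlarge the heart. Each library came from heart tissue, a mixture of cell types.

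The values are FPKM, fragments per kilobase of transcript and normalised to the number of mapped fragments, which allow levels to be compared between genes of different length. Cardiomyocyte markers came to 7282 to 8965 FPKM with Ang II and 7671 to 8500 FPKM with Tec, and all 6 of these markers were present. Ang II replicate 3 stood apart from the other Ang II libraries. Its fibroblast markers summed to 124 FPKM against 498 and 632 FPKM in replicates 1 and 2, while the Ang II + Tec libraries had 107, 179 and 121 FPKM. Mitochondrial genes took 48.9% of its summed FPKM against 41.3% and 40.2% in the other Ang II libraries and 51.3%, 49.6% and 52.5% with Tec. The atrial muscle marker Myl7 was at 0 FPKM in Ang II replicate 3, against 419 and 332 FPKM in replicates 1 and 2. In Ang II + Tec replicates 1 to 3 Myl7 measured 0, 1040 and 1.58 FPKM. Over 13089 genes that passed the filter on low values, 9802 (74.9%) had an Ang II replicate 3 value nearer to the Ang II + Tec mean than to the mean of the other Ang II libraries. Where leaving this library out brought genes of a list past the test, this is stated beside the list.

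Rab4a and Rab4b are the products of separate genes and each other's closest relatives in the family. Rab4a (ENSMUSG00000019478) lies on chromosome 8 from 123805985 to 123835287 on the plus strand, and Rab4b (ENSMUSG00000053291) on chromosome 7 from 27168424 to 27178896 on the minus strand, in coordinates equal to GENCODE M21 on the mouse build GRCm38. Their coding sequences had 657 and 642 bases and shared 483 of 638 aligned bases (75.7%), with no identical run longer than 23 bases. The stretch below is shown because it encodes the P-loop, the part of every active Rab that grips the phosphates of GTP, and because it shows how far the 2 genes can be told apart by reads. Bases are counted from the first base of the start codon, and capitals mark the P-loop codons.
Rab4a, bases 40 to 99: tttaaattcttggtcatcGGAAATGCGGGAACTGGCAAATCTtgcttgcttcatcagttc
Rab4b, bases 25 to 84: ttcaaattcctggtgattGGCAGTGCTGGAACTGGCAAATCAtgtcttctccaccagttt
These windows differed at 14 of 60 bases, 4 of them within the capitals. The last 15 codons are shown because they carry the cysteines to which the lipid anchor of a Rab is attached, and capitals mark the cysteine codons.
Rab4a, bases 613 to 657: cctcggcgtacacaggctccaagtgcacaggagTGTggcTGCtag
Rab4b, bases 598 to 642: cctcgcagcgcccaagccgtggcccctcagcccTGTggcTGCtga
Both genes ended in the cysteine, any residue, cysteine arrangement, which 20 of the 59 Rab genes had. A further 15 ended in a pair of cysteines, and 24 had a cysteine in another arrangement near the end. The coding lengths over the family ran from 585 to 2922 bases with a median of 648. Rab4a was further from the endosomal Rabs Rab14 (65.7% identical bases), Rab7 (62.9%), Rab11a (62.3%) and Rab5a (59.3%) than from Rab4b.

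Rab4a was lower in every Ang II + Tec library than in any Ang II library. It measured 6.37, 6.00 and 5.28 FPKM in Ang II replicates 1 to 3 and 1.36, 2.14 and 1.56 FPKM in Ang II + Tec replicates 1 to 3. The lowest Ang II value was thus well above the highest value with Tec, and Ang II replicate 3 sat with its own group. The means were 5.88 ± 0.554 FPKM (SD, n = 3) and 1.69 ± 0.405 FPKM (SD, n = 3), so that the level with Tec was 28.7% of that with Ang II alone. On the log2(FPKM + 1) scale the difference was -1.36 (SE 0.14), and it was -1.43 without Ang II replicate 3. The table as a whole was shifted downward with Tec, with a lower mean for 10471 of 13089 genes (80.0%) and a median difference of -0.17. Rescaling each library by its median ratio to the average library moved that median to 0.0020, and Rab4a then differed by -1.19.

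Rab4b differed less. It measured 7.20, 7.62 and 4.53 FPKM in the Ang II libraries and 3.23, 4.37 and 3.57 FPKM with Tec. The groups did not overlap, but Ang II replicate 3 lay close to the highest library with Tec. The means were 6.45 ± 1.68 FPKM and 3.72 ± 0.585 FPKM (SD, n = 3 each), a difference of -0.64 (SE 0.19) on the log2 scale, of -0.84 without Ang II replicate 3 and of -0.44 after rescaling. The sum of both genes was 13.6, 13.6 and 9.81 FPKM with Ang II and 4.59, 6.51 and 5.13 FPKM with Tec.

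The share of Rab4a in the sum of Rab4a and Rab4b does not depend on how a library is scaled. It was 46.9%, 44.1% and 53.8% in the Ang II libraries and 29.6%, 32.9% and 30.4% with Tec. With Ang II the genes were near equal, and with Tec Rab4b was the more abundant in every library. The mean share was 48.3% ± 5.02 (SD, n = 3) and 31.0% ± 1.69 (SD, n = 3), a difference of -17.3 percentage points that ran from -19.4 to -14.5 when each library was left out in turn. Rab4a made up 0.829% ± 0.0448 of the FPKM of all Rab genes with Ang II and 0.284% ± 0.0524 with Tec (SD, n = 3 each).

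**Figure D1:**
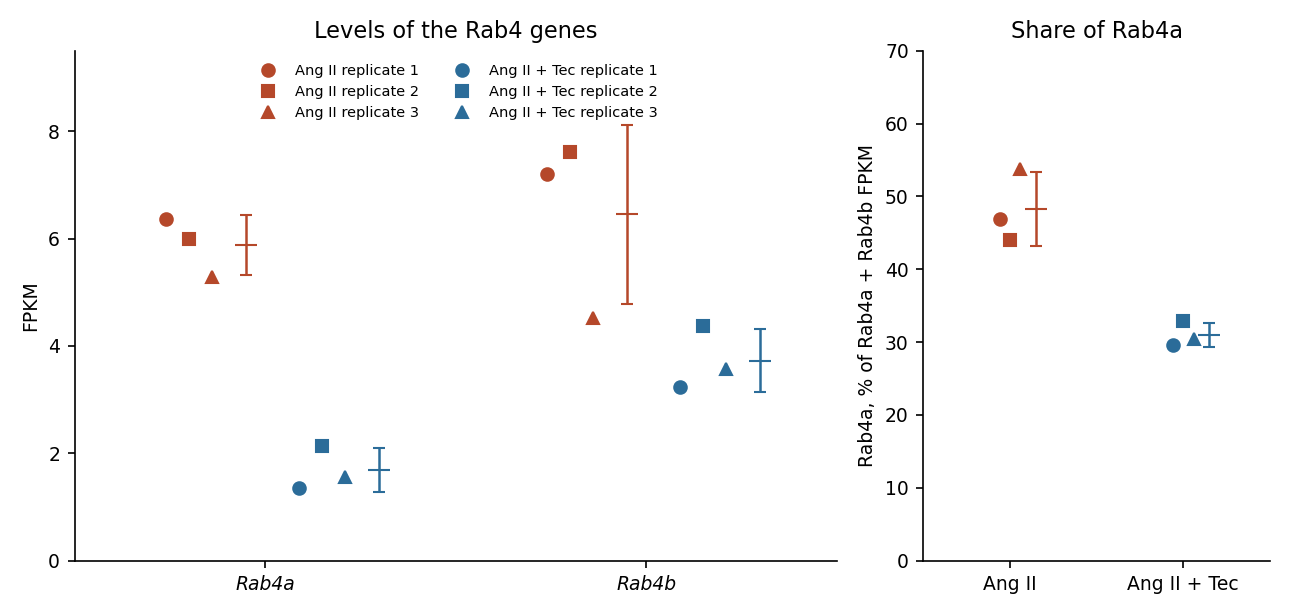
FPKM of Rab4a and Rab4b in each library (left) and Rab4a as a percent of Rab4a plus Rab4b (right); colours are the groups, marker shapes the replicate numbers, and bars the mean ± SD of 3 libraries. Rab4a lies between 5.28 and 6.37 FPKM with Ang II and between 1.36 and 2.14 FPKM with Tec, whereas for Rab4b Ang II replicate 3 (4.53 FPKM) is close to the libraries with Tec.

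Across the whole table, a gene was called when its adjusted p (limma, Benjamini-Hochberg) was under 0.05 and its log2 difference was at least 1 in size. The test called 21 of 13089 genes (0.16%), 10 of them lower with Tec (0.0764%). Of the 59 Rab genes 44 passed the filter on low values, and 1 was called, Rab4a. As the family was chosen for that difference, nothing is read from this count. Leaving out Ang II replicate 3 gave 4 called Rab genes, Rab4a, Rab29, Rab31 and Rab32, among 544 called genes of 12900 (4.22%). Leaving out any other single library (Ang II replicate 1, Ang II replicate 2, or Ang II + Tec replicate 1, 2 or 3) gave 0 called Rab genes, with 3, 6, 0, 0 and 0 called genes in all and 938 to 2324 genes at an unadjusted p under 0.05 in limma. Rab4a was not called in these 5 fits, although its difference stayed between -1.48 and -1.28.

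Rab7 and Rab2a had the highest mean levels of the family. Rab7, which directs transport to late endosomes and lysosomes, averaged 76.9 FPKM over the 6 libraries. Rab2a and Rab1b, which serve the path between the endoplasmic reticulum and the Golgi, averaged 76.8 and 71.7 FPKM. Rab12, which acts on recycling endosomes and lysosomes and was sorted here with the secretory Rabs, followed with 52.3 FPKM. These 4 genes held 41.7% ± 2.34 of the summed Rab FPKM with Ang II and 43.9% ± 0.589 with Tec (SD, n = 3 each). The next were Rab1a (34.0 FPKM), Rab10, which brings GLUT4 vesicles to the surface (32.9), Rab5c of early endosomes (28.7), Rab6a of the Golgi (24.1), Rab11a of the slow recycling route (23.3) and Rab21, which carries integrins (17.7). Neighbours in this order mostly had overlapping ranges over the 6 libraries of both groups. Of the 43 adjacent pairs of tested genes only Rab1b over Rab12 and Rab12 over Rab1a had ranges that did not overlap. Some pairs with overlapping ranges kept their order within all 6 libraries, such as Rab5c over Rab6a and Rab11a over Rab21. Rab4a stood at place 30 of 59 by its mean over all libraries, behind Rab4b at place 26.

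**Figure D2:**
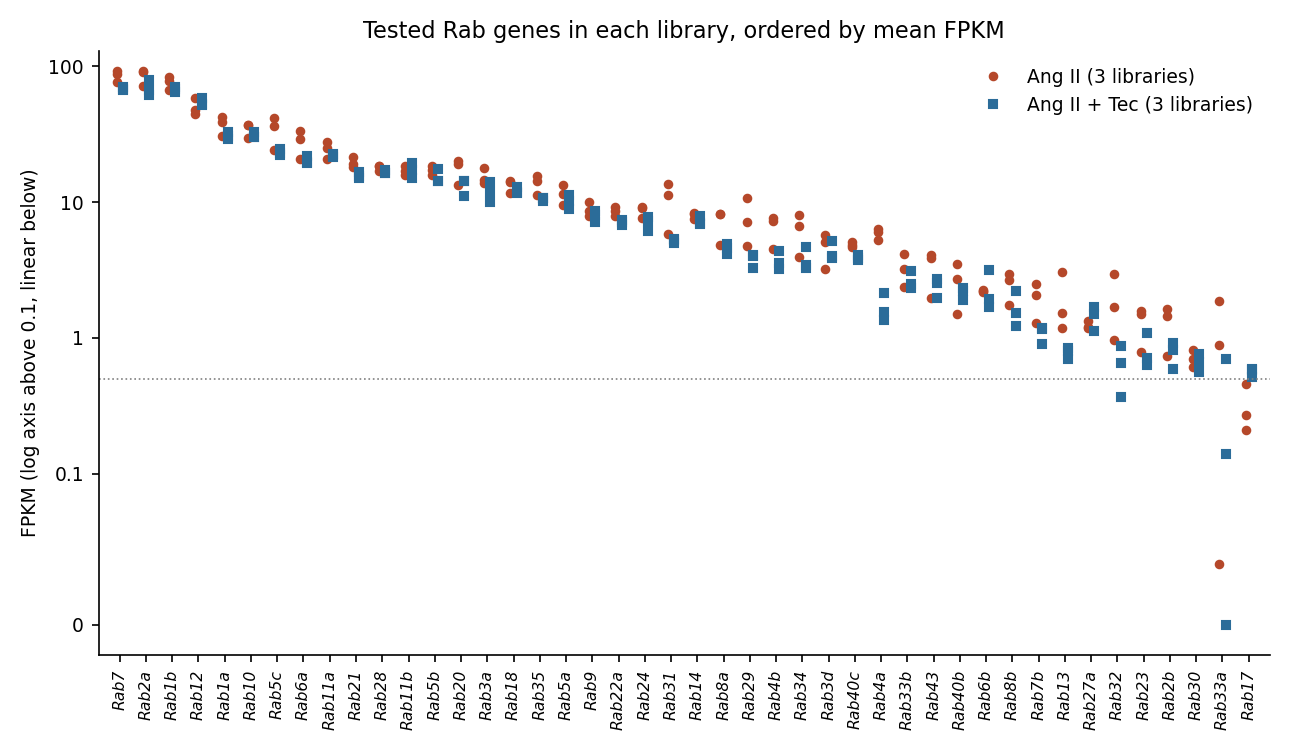
FPKM of the 44 tested Rab genes in each of the 6 libraries, ordered by their mean; circles are Ang II, squares Ang II + Tec, the dotted line is the filter value of 0.5 FPKM, and the axis is logarithmic above 0.1 and linear below. Most genes have overlapping or adjoining groups, and at place 30 by level Rab4a shows a wide gap between 5.28 FPKM, its lowest Ang II value, and 2.14 FPKM, its highest with Tec.

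Of the 59 Rab genes 15 did not pass the filter. Rab15 had the highest mean level among them, with 1.44 FPKM in Ang II replicate 2 and at most 0.52 FPKM elsewhere. Rab3b reached 1.25 FPKM in Ang II + Tec replicate 2 and at most 0.27 FPKM elsewhere. Rab27b reached 0.80 FPKM and Rab42 0.59 FPKM in 1 Ang II library each. Rab36, Rab37, Rab19, Rab38, Rab39b, Rab39, Rab9b, Rab26, Rab44, Rab25 and Rab3c stayed at 0.33 FPKM or below in every library. Rab38, a melanosome Rab, was listed at 0.04, 0 and 0 FPKM with Ang II and at 0.12, 0.31 and 0.11 FPKM with Tec. Rab25, the epithelial relative of Rab11, was listed at 0 in 5 of the 6 libraries.

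On the scale of the table, 40 of the 44 tested Rab genes (90.9%) had a lower mean with Tec and 4 a higher mean, against 80.0% lower among all genes tested. The median difference was -0.27 on the log2 scale for the Rab genes and -0.17 for all genes, and it was -0.38 and -0.24 with Ang II replicate 3 left out. This direction depended on scaling. After median-ratio rescaling 27 of 44 Rab genes (61.4%) were lower against 49.6% of all genes, with medians of -0.059 and 0.0020. Rescaling to the sum over nuclear genes left 39 of 44 (88.6%) lower against 76.8% of all genes, with medians of -0.24 and -0.14. Where no kind is named, rescaling means that by the median ratio. The groups did not overlap for 13 Rab genes (29.5%), 12 of them lower and 1 higher with Tec, where 21.8% of all genes did not overlap, 18.9% lower and 2.9% higher. After median-ratio rescaling 7 Rab genes were lower without overlap, Rab4a, Rab4b, Rab7b, Rab13, Rab29, Rab31 and Rab32. A further 3 were higher, Rab10, Rab17 and Rab18, where 10.8% of all genes were lower and 10.9% higher in this way. In bulk tissue fewer cells of a type and less RNA per cell cannot be told apart.

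**Figure D3:**
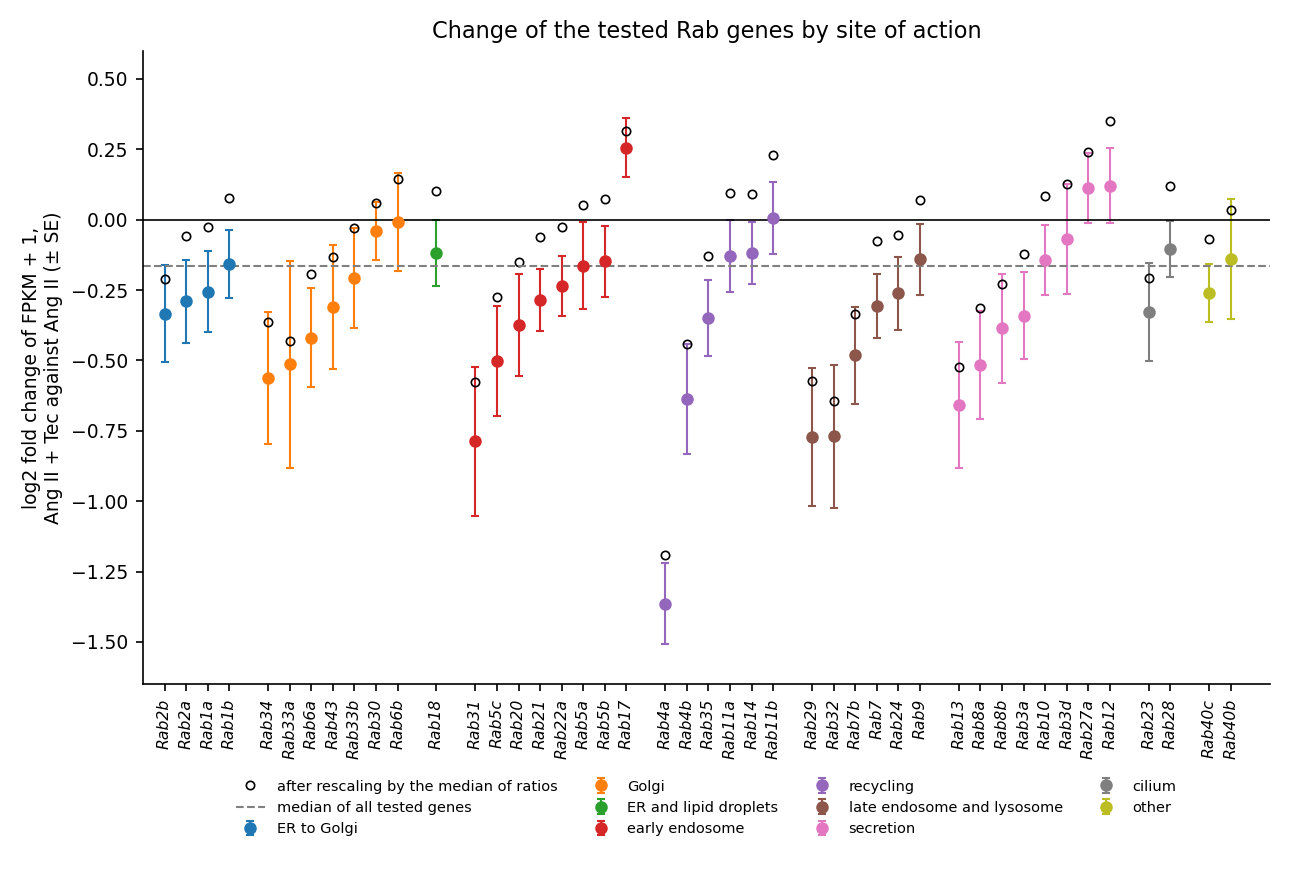
Difference between the groups on the log2(FPKM + 1) scale (Ang II + Tec minus Ang II, filled circles ± SE, 3 libraries each) for the 44 tested Rab genes, sorted by site of action; open circles are the differences after median-ratio rescaling and the dashed line is the median of all tested genes (-0.17). Rab4a at -1.36 lies below all other members, the next being Rab31 at -0.79, and rescaling shifts the members upward, several of them past 0.

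Among the Rabs of the recycling routes, Rab35, which sends cargo from endosomes back to the surface, measured 15.7, 14.4 and 11.4 FPKM with Ang II and 10.7, 10.8 and 10.2 FPKM with Tec. The groups lay apart, by a difference of -0.35 (SE 0.14) that became -0.13 after rescaling. Rab11a measured 25.1, 27.5 and 20.8 FPKM against 22.0, 22.7 and 21.6 FPKM, so that its groups overlapped and its difference of -0.13 turned to 0.096 after rescaling. Rab11b measured 18.4, 15.8 and 17.0 FPKM against 15.1, 19.3 and 17.2 FPKM, a difference of 0.01. Its value is uncertain because the processed pseudogene Rab11b-ps2, at 10.5 FPKM with Ang II and 10.4 FPKM with Tec, shares 653 of 654 bases with it. The recycling Rabs as a class held 10.7% ± 0.208 of the summed Rab FPKM with Ang II and 10.6% ± 0.133 with Tec (SD, n = 3 each), and these shares overlapped. Rab12 was sorted with the secretory Rabs and is not part of these shares.

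Among the early endosome Rabs, Rab31, which acts between the Golgi and endosomes, had the difference next in size after Rab4a. It measured 11.2, 13.6 and 5.81 FPKM with Ang II and 5.34, 4.96 and 5.25 FPKM with Tec. The difference was -0.79 (SE 0.27), and -1.11 without Ang II replicate 3, whose value adjoined those with Tec. Rab21 had 21.4, 19.0 and 18.3 FPKM against 15.6, 16.8 and 15.2 FPKM, and Rab22a, which sorts cargo at early endosomes, had 9.13, 8.66 and 7.93 FPKM against 7.18, 7.36 and 6.81 FPKM. Their groups lay apart by small differences of -0.29 (SE 0.11) and -0.24 (SE 0.11). After rescaling these were -0.062 and -0.027, and the groups overlapped. Rab5c measured 36.5, 41.5 and 24.3 FPKM against 23.0, 24.6 and 22.0 FPKM, so that 1 library with Tec lay above Ang II replicate 3. Its share of the 3 Rab5 genes was 53.8% ± 4.25 with Ang II and 47.7% ± 1.52 with Tec (SD, n = 3 each), while that of Rab5a was 18.4% ± 0.810 and 20.7% ± 1.05. For Rab5a and Rab5c the shares did not overlap between groups, by a margin of under 1 percentage point in both cases.

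Rab17, an epithelial Rab of transcytosis, was the member with the largest positive difference, at a level near the filter value. It was listed at 0.27, 0.21 and 0.46 FPKM with Ang II and at 0.52, 0.59 and 0.58 FPKM with Tec. All libraries with Tec lay above all Ang II libraries, by 0.26 (SE 0.10) on the log2 scale, and the gene passed the filter through the libraries with Tec. The other positive differences were small. Rab12 measured 47.6, 44.7 and 58.2 FPKM against 53.0, 51.5 and 58.6 FPKM, and Rab27a, which docks granules at the surface, 1.19, 1.21 and 1.33 FPKM against 1.12, 1.70 and 1.49 FPKM. Their differences were 0.12 (SE 0.13) and 0.11 (SE 0.12), within their errors. Rab11b at 0.01 was the last of the 4 positive members, and Rab6b, the neuronal form of Rab6, came after it at -0.01 (SE 0.17). The difference of Rab12 was 0.04 when Ang II replicate 2 was left out and 0.23 when replicate 3 was, and that of Rab27a ran from 0.04 to 0.21 with 1 library left out, the ends being those without replicates 2 and 1 of Ang II + Tec.

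Among the late endosome and lysosome Rabs, Rab29 and Rab32 were lower with Tec and Rab7 less so. Rab29, which recruits the kinase LRRK2, measured 7.15, 10.7 and 4.75 FPKM with Ang II and 3.29, 4.08 and 4.03 FPKM with Tec. Rab32, which acts at lysosome-related organelles and mitochondria, measured 1.69, 2.95 and 0.97 FPKM against 0.65, 0.87 and 0.37 FPKM. The differences were -0.77 (SE 0.25) for both, and -1.03 and -1.01 without Ang II replicate 3. Rab7b, which acts between late endosomes and the Golgi, had 2.07, 2.50 and 1.28 FPKM against 0.91, 1.16 and 1.18 FPKM, a difference of -0.48 (SE 0.17), or -0.66 without Ang II replicate 3. Rab7 itself measured 87.7, 92.0 and 76.0 FPKM against 68.0, 70.3 and 67.2 FPKM. Its groups lay apart by -0.31 (SE 0.11), which shrank to -0.074 after rescaling, and its processed pseudogene Rab7-ps1, at 4.08 FPKM with Ang II and 3.21 FPKM with Tec, shares 612 of 622 aligned bases with it.

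The secretory Rabs included Rab13, which acts at cell junctions and in GLUT4 transport of muscle. It measured 1.52, 3.06 and 1.18 FPKM with Ang II and 0.85, 0.80 and 0.70 FPKM with Tec, a difference of -0.66 (SE 0.22), which was -0.84 without Ang II replicate 3 and -0.40 without replicate 2. Rab10 measured 36.9, 37.1 and 29.8 FPKM against 30.3, 33.0 and 30.0 FPKM. Its groups overlapped, and its difference of -0.14 turned to 0.085 after rescaling. The antisense transcript Rab10os, which overlaps Rab10, was at 1.22 FPKM with Ang II and 0.837 FPKM with Tec. Rab40c, which carries a SOCS box that binds a ubiquitin ligase, was sorted under other sites. It measured 4.87, 5.05 and 4.65 FPKM against 3.73, 4.06 and 3.88 FPKM. This difference of -0.26 (SE 0.10) was small, and the groups lay apart. After rescaling it was -0.069 and the groups overlapped. Of the tested Rab genes 21 overlapped another gene of the table, 11 of them a gene on the opposite strand, and how their reads were shared out was not tested. No other gene of the table overlapped Rab4a.

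The Rabs of the path from the endoplasmic reticulum through the Golgi had lower means with Tec on the log2 scale, and the libraries of the groups overlapped. Rab2a measured 90.0, 91.7 and 72.0 FPKM with Ang II and 61.5, 78.9 and 66.5 FPKM with Tec, a difference of -0.29 (SE 0.15). Rab1b measured 82.7, 78.4 and 66.3 FPKM against 64.6, 70.5 and 67.8 FPKM, and its difference of -0.16 (SE 0.12) turned to 0.075 after rescaling. Rab1a measured 39.1, 42.1 and 30.4 FPKM against 28.9, 32.9 and 30.5 FPKM, and Rab6a 29.3, 33.6 and 20.9 FPKM against 19.3, 21.7 and 19.9 FPKM. In each of these the lowest Ang II value was that of replicate 3 and fell within the range of the libraries with Tec. No tested gene of this path, 4 of the first step and 7 of the Golgi, had groups that lay apart, where 21.8% of all genes did. With so few genes nothing is read from this count.

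Ang II replicate 3 did not take the same place in all members. Its value lay nearer to the Ang II + Tec mean than to the mean of the other Ang II libraries for 37 of the 44 tested Rab genes (84.1%), against 74.9% of all genes. The exceptions were Rab4a, Rab21, Rab11b, Rab3a, Rab24, Rab40c and Rab6b. The median of Ang II replicate 3 minus the mean of replicates 1 and 2 was -0.34 on the log2 scale over the Rab genes and -0.22 over all genes. For Rab4a it was -0.19, where Rab4a differed between the groups by -1.36. For Rab31 it was -0.97, and for Rab4b -0.60. The family was chosen for the difference of Rab4a over all 6 libraries, a choice that favours a replicate 3 value close to its own group. Nothing is therefore read from the place of Rab4a among the members.

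**Figure D4:**
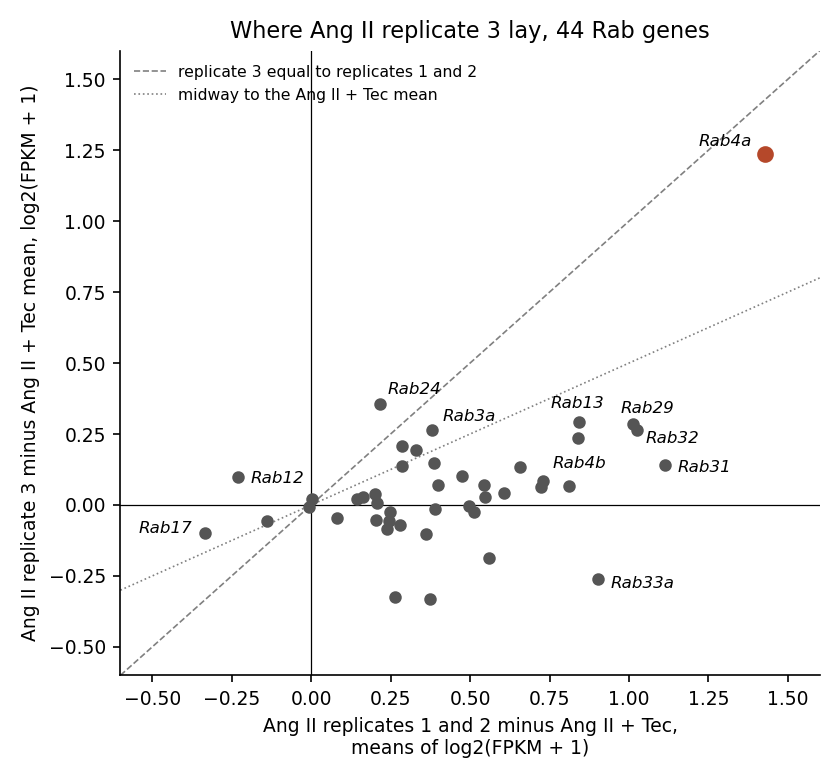
For each of the 44 tested Rab genes, the mean of Ang II replicates 1 and 2 minus the Ang II + Tec mean (horizontal) and Ang II replicate 3 minus the Ang II + Tec mean (vertical), both on the log2(FPKM + 1) scale; on the dashed line replicate 3 equals the other Ang II libraries, and on the horizontal line it equals the libraries with Tec. Most genes lie near the horizontal line, and Rab4a, at 1.43 and 1.24, lies near the dashed line. The family was chosen for the difference of Rab4a over all 6 libraries, which favours such a place.

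Marker sums of other cell types lay apart between the groups for leukocytes, endothelium and neurons and overlapped for the rest. Smooth muscle markers summed to 92.1 to 316 FPKM with Ang II and 49.9 to 231 FPKM with Tec. Adipocyte markers summed to 86.4 to 109 FPKM with Ang II and 77.8 to 143 FPKM with Tec. All 5 macrophage and leukocyte markers had a lower mean with Tec, and their sum was 92.6, 115 and 62.2 FPKM with Ang II and 39.1, 40.6 and 44.9 FPKM with Tec, without overlap. All 6 fibroblast markers had a lower mean with Tec, with Ang II replicate 3 in the range of the libraries with Tec as given above. Endothelial markers summed to between 92.2 and 94.9 FPKM with Ang II and between 79.6 and 87.3 FPKM with Tec. Of these 5 markers 4 had a lower mean with Tec and Cdh5 a higher one, and only Kdr and Egfl7 had groups that lay apart. Neuronal markers summed to between 2.34 and 2.78 FPKM with Ang II and between 1.15 and 1.77 FPKM with Tec. Of these 5 markers 3 had a lower mean with Tec. Only Dbh (mean 1.85 FPKM with Ang II, 0.917 FPKM with Tec) passed the filter and had groups that lay apart. Markers of atrial muscle summed to between 256 and 10253 FPKM with Ang II and between 128 and 5032 FPKM with Tec, a wide spread within both groups. Nppa made up most of this sum in every library. Sln and Myl4 split the libraries as Myl7 did above. Both were at 67.08 FPKM or more in Ang II replicates 1 and 2 and Ang II + Tec replicate 2, and at 1.02 FPKM or less elsewhere. All 4 erythroid markers had a lower mean with Tec, and their sums overlapped, at 198 to 804 FPKM and 122 to 432 FPKM. Of the fast skeletal muscle markers, Atp2a1 was higher with Tec (0.10, 0.07 and 0.07 FPKM against 6.30, 7.51 and 7.46 FPKM), as was Mylpf (0.58, 0.56 and 0.22 FPKM against 4.14, 3.44 and 4.55 FPKM), with an adjusted p of 0.000251 and 0.0142 in limma. Atp2a1 lay under the filter value in every Ang II library and passed the filter through the libraries with Tec, which limits its p-value. Tnnt3 went from 6.91, 42.4 and 0.30 FPKM to 1.41, 1.04 and 1.31 FPKM, and Myh1 was at 0.02 FPKM or less in every library. Ang II replicate 3 had the lowest fibroblast, leukocyte and atrial sums of its group and also its lowest Rab4a value, 5.28 FPKM. Its leukocyte sum still lay above those with Tec. The part of these cell types in the differences of the Rab genes was not tested.

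The machinery that loads, switches and reads the Rabs was described by lists of 152 genes, of which 128 were tested. None was called, and none had an adjusted p under 0.05 (limma), where 24 of all genes did (0.183%), while 8 had an unadjusted p under 0.05, where 18.6% of all genes did. Lower means with Tec were found for 96 of the 128 (75.0%) against 80.0% of all genes, with a median of -0.12 against -0.17. How many genes passed the test depended on Ang II replicate 3, in the lists as over all genes. Without it, 25 of the 128 had an adjusted p under 0.05 in limma, 23 lower and 2 higher with Tec, which is 19.5% where 3701 of all 12900 genes (28.7%) did so, and 1 was called, Tfrc. Under each of the other alternatives the number was 0, with the lowest adjusted p of the lists between 0.0517 and 0.501.

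The chaperones and lipid transferases, which escort Rabs through the cytosol and attach their anchor, had 7 of 8 members lower and 1 higher, with a median of -0.23. Chml, a Rab escort protein, had the largest difference, from 1.96 ± 0.410 FPKM to 1.17 ± 0.156 FPKM (SD, n = 3 each), with an adjusted p of 0.222 in limma. Rabif followed at -0.33. Without Ang II replicate 3 they differed by -0.56 and -0.47, with an adjusted p of 0.016 and 0.0338 in limma. In that fit 5 of the 8 members had an adjusted p under 0.05, where 28.7% of all genes had one. Other alternatives gave 0.138 to 0.646 for Chml and 0.189 to 0.692 for Rabif, and the only higher member, Rabggta, differed by 0.040. Of the exchange factors 20 of 29 were lower and 9 higher, with a median of -0.099. Rab3il1, an exchange factor of Rab8, measured 2.66, 3.48 and 1.67 FPKM with Ang II and 1.08, 1.10 and 1.18 FPKM with Tec, a difference of -0.73 (SE 0.19) with an adjusted p of 0.201 in limma. Without Ang II replicate 3 it was -0.93 with an adjusted p of 0.00493, which ran from 0.12 to 0.646 over the other alternatives. Rin2, which acts on Rab5, differed by -0.56, and by -0.77 without that library (adjusted p = 0.0162 in limma, against 0.132 to 0.646 elsewhere). Dennd4c, which acts on Rab10, had the largest positive difference of that list at 0.24, from 3.08, 3.18 and 3.01 FPKM to 3.42, 4.48 and 3.62 FPKM, and its groups lay apart. Dennd6b followed at 0.17, which was 0.052 without Ang II replicate 2. Dennd4c was at 0.14 without Ang II + Tec replicate 2. With Ang II replicate 3 left out, 4 of the 29 (13.8%, against 28.7% of all genes) had an adjusted p under 0.05 in limma, all of them lower.

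Of the GTPase-activating proteins 24 of 32 were lower and 8 higher, with a median of -0.12. Tbc1d14 and Tbc1d2b had the largest negative differences, at -0.38 and -0.37, and Tbc1d4, which holds back GLUT4 vesicles until insulin acts, the largest positive one at 0.19, followed by Tbc1d15 at 0.17. Both rested on 1 library, since Tbc1d4 was at 0.042 without Ang II + Tec replicate 2 and Tbc1d15 at 0.073 without Ang II replicate 3 and at 0.29 when replicate 2 was left out instead. In the fit lacking Ang II replicate 3, 3 of the 32 (9.38%, against 28.7% of all genes) had an adjusted p under 0.05 in limma. These were Tbc1d14, Tbc1d2b and Tbc1d13, all lower. Of the effectors 24 of 33 were lower and 9 higher, with a median of -0.10. The motor Myo5a and the retromer subunit Vps29 were lowest at -0.41 and -0.40, and Fyco1, which links late endosomes to kinesin, and Myrip were highest at 0.32 and 0.20. Fyco1 was at 0.069 when Ang II replicate 2 was left out and at 0.57 when replicate 3 was. Myrip was at 0.0040 when Ang II + Tec replicate 2 was left out and at 0.36 when replicate 1 was. When Ang II replicate 3 was left out, 4 of the 33 (12.1%, against 28.7% of all genes) had an adjusted p under 0.05 in limma. These were Myo5a (-0.55), Vps29 (-0.61), Osbpl1a and, in the higher direction, Fyco1. All 5 tested relatives outside the family rule were lower, with a median of -0.21. Ift27, a Rab-like GTPase of the cilium, measured 2.62, 2.73 and 2.31 FPKM against 1.17, 1.65 and 1.63 FPKM, a difference of -0.52 (SE 0.13) with an adjusted p of 0.201 in limma. Ift22 followed at -0.41. Without Ang II replicate 3 they differed by -0.57 and -0.62, with an adjusted p of 0.0206 and 0.0224 in limma. The adjusted p was 0.125 to 0.646 for Ift27 and 0.165 to 0.70 for Ift22 over the other alternatives. With that library left out, 2 of the 5 relatives (40%, against 28.7% of all genes) had an adjusted p under 0.05 in limma.

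No gene for a protein that works with Rab4 passed the test over all 6 libraries. Of 10 tested partners 7 were lower and 3 higher, with a median of -0.11, and in limma none had an adjusted or an unadjusted p under 0.05. Rabep1 (rabaptin-5), an effector that binds both Rab4 and Rab5, measured 6.18, 6.10 and 4.45 FPKM with Ang II and 5.16, 5.61 and 4.64 FPKM with Tec. Its difference of -0.092 (SE 0.15) turned to 0.11 after rescaling. Rufy1, another Rab4 effector, measured 13.8, 11.8 and 11.7 FPKM against 10.1, 12.0 and 10.7 FPKM, and Rbsn (rabenosyn-5) 2.29, 2.38 and 1.68 FPKM against 1.61, 2.11 and 1.61 FPKM. Their differences were -0.16 (SE 0.12) and -0.16 (SE 0.14), and that of Rufy1 turned to 0.053 after rescaling. Rabep2, Rabgef1, Gripap1 and Cd2ap differed by -0.044, -0.12, 0.028 and 0.035, each by less than its error, and the first 2 turned to 0.090 and 0.065 after rescaling. Kif3b, a kinesin subunit, had the largest difference of the list at -0.43 (SE 0.19). Without Ang II replicate 3 it was the only partner with an adjusted p under 0.05 in limma, where 28.7% of all genes had one. Its difference was then -0.62 (adjusted p = 0.02 in limma, against 0.170 to 0.661 over the other alternatives). It was followed by the adaptor subunit Ap1g1 at -0.23 (SE 0.13). Dennd3 had groups that lay apart in the higher direction, with 1.48, 1.59 and 1.51 FPKM with Ang II and 1.91, 1.63 and 1.79 FPKM with Tec. Rab11fip1 was below the filter at 0.10 FPKM or less in every library.

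Among 13 proteins carried by the recycling routes 10 were lower and 3 higher, with a median of -0.29. Tfrc, the transferrin receptor, is the classic cargo of the Rab4 and Rab11 routes. It measured 35.4, 33.3 and 14.8 FPKM with Ang II and 6.61, 6.35 and 6.33 FPKM with Tec. Its groups lay far apart, and Ang II replicate 3 lay between them. The means were 27.8 ± 11.3 FPKM and 6.43 ± 0.156 FPKM (SD, n = 3 each). The difference of -1.86 (SE 0.30) did not pass the test over all genes (adjusted p = 0.115 in limma). Without Ang II replicate 3 it was -2.25 with an adjusted p of 6.857e-05, while over the other alternatives the adjusted p ran from 0.0517 to 0.501.

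The other cargo differed less over all 6 libraries. With Ang II replicate 3 left out, 6 of the 13 had an adjusted p under 0.05 in limma, where 28.7% of all genes had one. Of these Tfrc, Itgb1, Egfr, Lrp1 and Slc2a1 were lower and Cd36 was higher. Slc2a4, which encodes GLUT4, measured 91.0, 75.6 and 99.6 FPKM with Ang II and 68.3, 76.0 and 71.9 FPKM with Tec. A single library with Tec lay above the lowest Ang II library, and the difference of -0.29 had an adjusted p of 0.287 in limma. Itgb1, the integrin beta 1 chain, differed by -0.50 (SE 0.23), and by -0.74 without Ang II replicate 3 (adjusted p = 0.0135 in limma, against 0.15 to 0.655 over the other alternatives). Cd36, the fatty acid transporter, measured 196, 188 and 271 FPKM against 267, 290 and 280 FPKM, a difference of 0.37 (SE 0.16) with an adjusted p of 0.271 in limma. Its Ang II replicate 3 lay within the range of the libraries with Tec, and without it the difference was 0.54 with an adjusted p of 0.0101, which ran from 0.198 to 0.660 over the other alternatives. Insr, the insulin receptor, was at 0.24 (SE 0.15), and at 0.13 without Ang II + Tec replicate 2. Agtr1a, the Ang II receptor, measured 9.24, 6.22 and 9.87 FPKM against 8.46, 6.06 and 8.11 FPKM, and the beta-adrenergic receptor Adrb1 3.73, 2.54 and 2.52 FPKM against 2.03, 3.02 and 2.49 FPKM. The groups overlapped for both receptors.

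**Figure D5:**
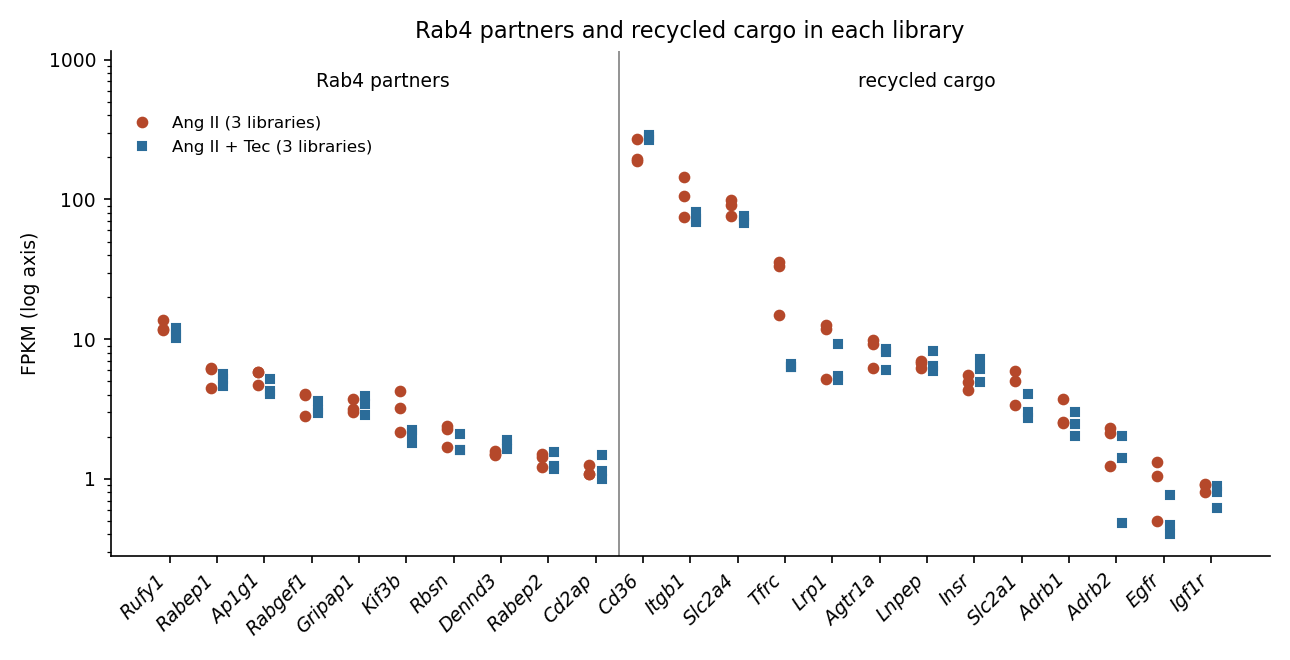
FPKM (log axis) of the 10 tested Rab4 partners and the 13 tested recycled cargo genes in each library; circles are Ang II and squares Ang II + Tec. The groups overlap for all partners except Dennd3 and for all cargo except Tfrc, which lies between 14.8 and 35.4 FPKM with Ang II and between 6.33 and 6.61 FPKM with Tec.

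No gene around Rab4a on chromosome 8 passed the test, although Tubb3, a neuronal tubulin, had a difference of like size. The 5 nearest tested genes on the lower side were Rhou, Gas8, Afg3l1, Def8 and Tubb3, from 142101 to 383970 bases away, and those on the upper side were Acta1, Nup133, Abcb10, Taf5l and Urb2, from 56482 to 186221 bases away. None had an adjusted p under 0.05 (limma). Abcb10, a mitochondrial transporter, measured 9.05, 9.03 and 9.61 FPKM with Ang II and 8.90, 9.55 and 9.20 FPKM with Tec. Of the remaining genes, 7 differed by between -0.23 and 0.038. Acta1, skeletal alpha-actin and the nearest neighbour, measured 196, 265 and 137 FPKM against 627, 195 and 89.2 FPKM, so that its difference of 0.20 (SE 0.64) rested on 1 library with Tec and was -0.54 without it. Tubb3 measured 6.30, 7.27 and 0.66 FPKM against 0.54, 1.66 and 0.34 FPKM. Its difference of -1.40 (SE 0.60) had an adjusted p of 0.272 in limma, and it was -2.14 with an adjusted p of 0.00417 without Ang II replicate 3, which lay within the range of the libraries with Tec. Over the other alternatives that adjusted p ran from 0.12 to 0.657.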

How the data were processed

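RNA from hearts of 6 mice was sequenced, 3 per group, grouped by the titles of the samples. The authors used Cutadapt for trimming and FastQC for quality control, and deposited 1 FPKM value per gene and library, rounded to hundredths, without read counts, so the depth of each library is unknown and no counting interval is given. Per the labels' processing notes, Bowtie 0.12.2, HISAT2 2.0, StringTie 1.3.0 and the build mm8 were used, but coordinates of 26777 of 30832 genes (86.85%), and of 49 of the 59 Rab genes, equalled those of GENCODE M21 on GRCm38, from which coding sequences were read. Whether the counting used strand is not given in the sources used here.

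Genes with at least 0.5 FPKM in at least 3 libraries were tested with limma 3.58.1 (R 4.3.3) on log2(FPKM + 1) with a variance trend and Benjamini-Hochberg adjustment over all 13089 genes, so differences understate the change of low genes. The fit was tested on simulated data. Alternatives were a pseudocount of 0.1, other filters, median-ratio rescaling, quantile normalization, no trend, a replicate block, leaving out each library and, chosen after seeing the data, rescaling to nuclear genes. The libraries came from separate mice of 1 experiment, so p-values measure the spread between these mice.

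The family and all lists were chosen with earlier results of these data known. Named were Rab4a, Rab4b, the 10 highest members, members whose groups did not overlap, the 5 largest changes each way, untested members, Rab4 partners, the 2 largest changes each way of each list, genes with an adjusted p under 0.05, and neighbours of Rab4a. Adrb1, Agtr1a, Slc2a4, Slc2a1, Egfr, Lrp1, Osbpl1a, Tbc1d13, Rab5a, Rab18, Rab3a and Rab24 were named after their values were seen. Some genes of the lists are not reported here. Sites of action were assigned from general knowledge.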

Additional observations from a re-analysis of the deposited data

How the results depend on the processing

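The number of genes called was 21 of 13089, and it was 3 when all genes above 0 in any library were tested and from 0 to 544 when 1 library was left out. The highest came without Ang II replicate 3. The number of called Rab genes, 1, became 0 when all genes above 0 were tested, with more genes in the adjustment, and ran from 0 to 4 with 1 library left out, and that of called regulators, effectors and cargo from 0 to 1. The median difference of the Rab genes, -0.27, was -0.059 with median-ratio rescaling and -0.050 with quantile normalization. Both move the median of all genes to near 0, and rescaling to nuclear genes gave -0.24 for the Rab genes. With 1 library left out the median difference of the Rab genes ran from -0.38 to -0.22. Lower Rab genes numbered 38 to 40 with 1 library left out.

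Each library came from a separate mouse, and whether replicate numbers mark a shared step of preparation is not given in the labels. Same-numbered libraries had correlations of -0.039, 0.429 and 0.379 between their deviations from the group means. Differently numbered ones ran from -0.435 to 0.226. So few correlations cannot settle whether the numbers pair the libraries. A replicate block called 22 genes in all and 1 Rab gene.

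Of the Rab genes with values above, 19 of 24 kept their sign under every alternative, and 26 of the other 41 genes did. Median-ratio rescaling and quantile normalization turned Rufy1 to 0.053 and 0.057, Rabep1 to 0.11 and 0.12, Rabgef1 to 0.065 and 0.078, Rabep2 to 0.090 and 0.12, Abcb10 to 0.21 and 0.21, Urb2 to 0.041 and 0.083, Taf5l to 0.079 and 0.095 and Nup133 to 0.077 and 0.10. Quantile normalization turned Rbsn to 0.017, and rescaling to nuclear genes turned Abcb10 to 0.028. With 1 library left out, differences ran from -0.12 to 0.00090 for Rabep2, from -0.055 to 0.12 for Gripap1, from -0.018 to 0.072 for Afg3l1, from -0.54 to 0.86 for Acta1, from -0.025 to 0.025 for Abcb10, from -0.082 to 0.036 for Urb2, from -0.15 to 0.0016 for Nup133, from -0.13 to 0.13 for Rhou, from -0.057 to 0.12 for Rabggta and from -0.055 to 0.10 for Cd2ap.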
